A study of Homo sapiens with 4 samples.

Results

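The genes AXL, EGFR, MET, EPHA2, EPHB4, ERBB2, IGF1R, INSR and DDR1, all of which encode receptor tyrosine kinases, were taken by symbol from the deposited tables. Each symbol matched 1 row, so the group held 9 of the 18276 genes listed. Libraries were made from RNA recovered with an antibody against the splicing factor SF3B6 (IP, n = 2) and from input RNA (n = 2) of MDA-MB-231 cells, a human triple-negative breast cancer line. All 4 came from cells irradiated once at 400 mJ/cm2 whose lysate was digested with micrococcal nuclease, and the pull-down used 5 µg of antibody. The series design text describes both pairs as biological replicates, while the cell line entries differ in their last digit although each title gives MDA-MB-231. IgG pull-downs were not analysed here, so unspecific recovery was not separated from binding to SF3B6. The design asks which transcripts SF3B6 contacts, and here the question was how far the receptor messengers were recovered relative to input.

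Receptor tyrosine kinases span the plasma membrane, bind a growth factor or another ligand outside the cell, and pass the signal on by phosphorylating tyrosines inside it. They feed the RAS-MAPK and PI3K-AKT pathways, and in triple-negative breast cancer AXL, EGFR, MET and EPHA2 are known for roles in growth and invasion. Several of their messengers, among them those of MET, INSR and ERBB2, have well-known splice isoforms. SF3B6 belongs to SF3b, the part of the U2 particle that binds near the intron branch point, and the tables count reads per gene, so no isoform or intron could be told apart.

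The IP libraries were shallow and held 55492 and 30431 counts in genes, against 317190 and 519836 in the inputs. With 0 counts the upper limit is 3 counts, or 54.1 and 98.6 CPM (counts in a library brought to 1000000) in IP and 9.46 and 5.77 CPM in input, for counting error only. SF3B6's own transcript had 0 and 0 IP counts, against 0 and 1 input counts. Of 11 markers of mesenchymal-type lines, 11 had counts in both kinds of library, and their sum was 1982 and 1709 CPM in IP, against 2390 and 2684 CPM in input. VIM, the intermediate filament vimentin, led them with 43 and 16 IP counts and 286 and 532 input counts, ahead of MSN, the membrane linker moesin, with 13 and 8 IP counts and 72 and 129 input counts. Of 12 luminal markers, 8 were listed. Their sum, mostly of the keratins KRT8 and KRT18, was 829 and 887 CPM in IP, against 1116 and 1191 CPM in input. Of the other listed ones, KRT19 had 64 and 127 input counts, SPDEF 17 and 38, and GATA3 4 and 15. EPCAM and AGR2 had 2 and 4 input counts each, and CDH1 had 1 and 3. The hormone receptor genes ESR1 and PGR were not listed, nor were FOXA1 and TFF1. Of 10 blood cell markers, 4 were listed, with 5 and 1 IP counts in all, against 9 and 8 input counts. The leading ones were CD14, a monocyte surface protein (2 and 0 in IP, 9 and 7 in input), and LYZ, lysozyme (1 and 1 in IP, 0 and 1 in input).

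All 9 receptor messengers had counts in all 4 libraries. Together they held 226 and 117 IP counts, against 2082 and 3656 input counts. That was 0.407% (Wilson 95% interval 0.358 to 0.464) and 0.384% (0.321 to 0.461) of the IP counts in genes, against 0.656% (0.629 to 0.685) and 0.703% (0.681 to 0.726) of the input counts. Both IP shares lay below both input shares. At the pooled input share, the IP libraries would have held 380.4 and 208.6 receptor counts. The IP share was 0.582 times the input share as a ratio of means. With mitochondrial, 7SL, U-type snRNA, 5S, 5.8S and microRNA genes taken out of the totals (by symbol), the ratio was 0.645. Within the group the counts were shared out in similar proportions. AXL made up 42.9% (36.6 to 49.4) and 39.3% (30.9 to 48.4) of the receptor counts in IP, against 41.8% (39.7 to 44.0) and 42.0% (40.4 to 43.6) in input. EPHA2 made up 26.5% (21.2 to 32.7) and 28.2% (20.8 to 37.0) in IP, against 24.6% (22.8 to 26.5) and 24.6% (23.3 to 26.1) in input. The intervals of IP and input overlapped for both genes.

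No receptor passed the test of IP against input (edgeR's quasi-likelihood test, Benjamini-Hochberg adjustment over 3668 tested genes, threshold 0.05), where 4.06% of tested genes were called and 1.36% were called lower in IP. All 9 were tested, and all 9 log2 fold changes were below 0, as were those of 53.4% of all tested genes. Their median was -0.69, beside -0.06 over all tested genes. At an unadjusted p under 0.05, 4 receptors were lower (AXL, EGFR, ERBB2 and IGF1R), beside 7.72% of all tested genes. For 8 of the 9, all but INSR, both IP libraries lay below both inputs in normalised CPM (CPM over tested genes after TMM scaling). This held for 28.5% of tested genes. The tested genes were not matched to the receptors in abundance. Their median was 86 pooled input counts, while the receptors had 128 to 2408. DESeq2 called 0 of the 9, and 1.92% of the 2032 genes to which it gave an adjusted p. Of the genes it called, 37 were higher and only 2 were lower in IP.

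**Figure D1:**
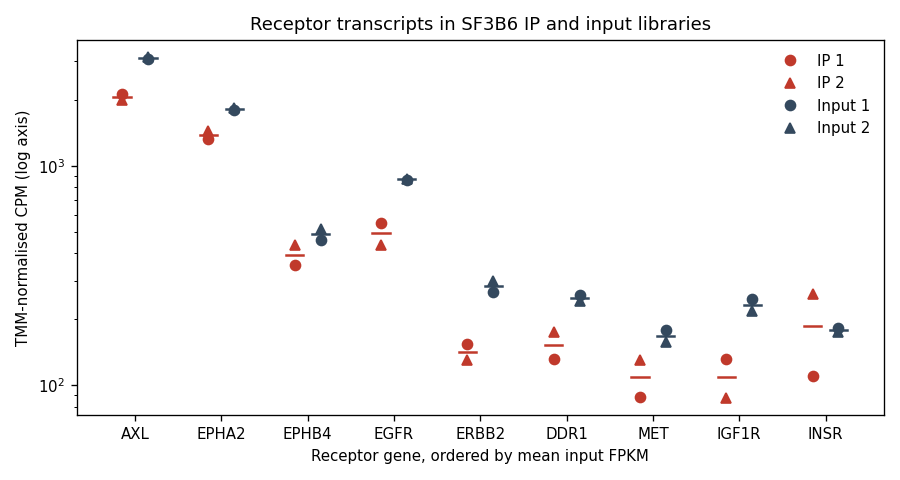
Normalised CPM (log axis) of each receptor gene in the 2 IP libraries (red) and the 2 input libraries (dark blue), with circles for replicate 1, triangles for replicate 2 and short lines for group means. The IP points lie below the input points for 8 genes, and INSR alone has 1 IP library above both inputs.

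AXL, the receptor of the vitamin K-dependent ligand GAS6 and a marker of mesenchymal-type breast cancer cells, was the most abundant receptor messenger. AXL (chromosome 19, 41219223 to 41261766, RefSeq GRCh38.p14) was counted 97 and 46 times in IP and 871 and 1537 times in input. At the pooled input share the IP counts would have been 159.6 and 87.5. In normalised CPM it stood at 2136 and 2004 in IP, against 3064 and 3133 in input, so both IP libraries were lower and the groups did not overlap. The log2 fold change was -0.57 ± 0.20 (SE, 95% interval -0.99 to -0.16), with an edgeR adjusted p of 0.118. AXL passed with library totals (-0.82, adjusted p = 0.0321) and with upper quartile scaling (-0.71, 0.0475), where 2.45% and 1.88% of tested genes were called lower. Without IP replicate 1 its log2 fold change was -0.85, with an adjusted p of 0.0509, and among genes with at least 50 counts in 2 libraries it was -0.36 (0.328). GAS6 itself had 78 and 37 IP counts, against 446 and 818 input counts, and a log2 fold change of 0.05 ± 0.20 (adjusted p = 0.955). The difference between the messengers of AXL and GAS6 was not tested.

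The ephrin receptors EPHA2 and EPHB4 bind ephrins on neighbouring cells and take part in cell contact and repulsion. EPHA2 (chromosome 1, 16124337 to 16156069) was counted 60 and 33 times in IP and 513 and 901 times in input. Its normalised levels were 1321 and 1438 CPM in IP, against 1805 and 1837 CPM in input, with no overlap. The log2 fold change of EPHA2 was -0.41 ± 0.21 (edgeR adjusted p = 0.321), and its interval reached from -0.83 to 0.00. EPHB4 (chromosome 7, 100802565 to 100827523) was counted 16 and 10 times in IP and 131 and 253 times in input. In normalised CPM EPHB4 stood at 352 and 436 in IP, against 461 and 516 in input. The higher IP value lay 5.46% below the lower input value, and the log2 fold change was -0.38 ± 0.28 (adjusted p = 0.556). EPHB4 was at -0.58 without IP replicate 2, -0.23 without input replicate 2 and -0.17 with the 50-count minimum, under which EPHA2 was at -0.20. EPHB4 overlaps the start of the SLC12A9 gene region (from 100826869), which had 8 and 2 IP counts and 62 and 118 input counts, and it is not known whether the counting used strand.

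EGFR and ERBB2 are members of the EGF receptor family: EGFR binds EGF and related ligands, while ERBB2, which has no known ligand of its own, pairs with its relatives and is the target of HER2 therapy. EGFR (chromosome 7, 55019017 to 55211628) was counted 25 and 10 times in IP and 245 and 429 times in input, where the pooled input share would have given 44.7 and 24.5. EGFR's normalised levels were 550.5 and 436 CPM in IP, against 862 and 874 CPM in input. Both IP values were well below both inputs, and the log2 fold change of -0.77 ± 0.25 (95% interval -1.27 to -0.27) had the smallest adjusted p of the 9 (edgeR, 0.0763). EGFR passed with library totals (-1.01, adjusted p = 0.0267) and with upper quartile scaling (-0.90, 0.0364). Without IP replicate 1 it was at -1.21 (adjusted p = 0.157). ERBB2 (chromosome 17, 39688094 to 39728658) was counted 7 and 3 times in IP and 76 and 147 times in input. It stood at 154 and 131 normalised CPM in IP, against 267 and 299.6 in input, for a log2 fold change of -0.97 ± 0.41 (95% interval -1.81 to -0.13, adjusted p = 0.223). On the same spans, EGFR-AS1 had 1 and 0 IP counts, against 4 and 0 input counts, and MIEN1, which overlaps the end of ERBB2, had 1 and 0 IP counts, against 5 and 17 input counts.

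MET is the receptor of hepatocyte growth factor, and DDR1 is a receptor for collagens. MET (chromosome 7, 116672196 to 116798377) was counted 4 and 3 times in IP and 51 and 77 times in input. Its normalised levels were 88.1 and 131 CPM in IP, against 179 and 157 CPM in input, for a log2 fold change of -0.69 ± 0.53 (edgeR adjusted p = 0.572). The interval for MET reached from -1.77 to 0.39, so a fall of more than 1.5 and a rise were both inside it on the log2 scale. DDR1 (chromosome 6, 30880970 to 30900156) was counted 6 and 4 times in IP and 73 and 119 times in input. DDR1 stood at 132 and 174 normalised CPM in IP, against 257 and 243 in input, for a log2 fold change of -0.76 ± 0.43 (adjusted p = 0.381).

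The insulin receptor family spanned nearly the whole range of the 9, within wide errors. IGF1R, which binds the insulin-like growth factors (chromosome 15, 98648539 to 98964530), was counted 6 and 2 times in IP and 70 and 107 times in input. It was at 132 and 87.1 normalised CPM in IP, against 246 and 218 in input, and the log2 fold change came to -0.96 ± 0.47 (95% interval -1.92 to -0.01, edgeR adjusted p = 0.314). Without IP replicate 1 IGF1R was at -1.60. INSR, the insulin receptor (chromosome 19, 7112265 to 7294414), was counted 5 and 6 times in IP and 52 and 86 times in input. INSR was the one receptor whose groups overlapped, at 110 and 261 normalised CPM in IP, against 183 and 175 in input. Its mean was 186 ± 107 CPM in IP and 179 ± 5.41 CPM in input (SD, n = 2 each), while the fitted log2 fold change, which weights libraries by depth, was -0.14 ± 0.46 (adjusted p = 0.939). The value for INSR was 0.33 without IP replicate 1, -0.79 without IP replicate 2, -0.0042 without input replicate 1, -0.08 without input replicate 2 and 0.057 among genes with at least 50 counts in 2 libraries. The 2 family members' intervals overlap over most of their length.

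**Figure D2:**
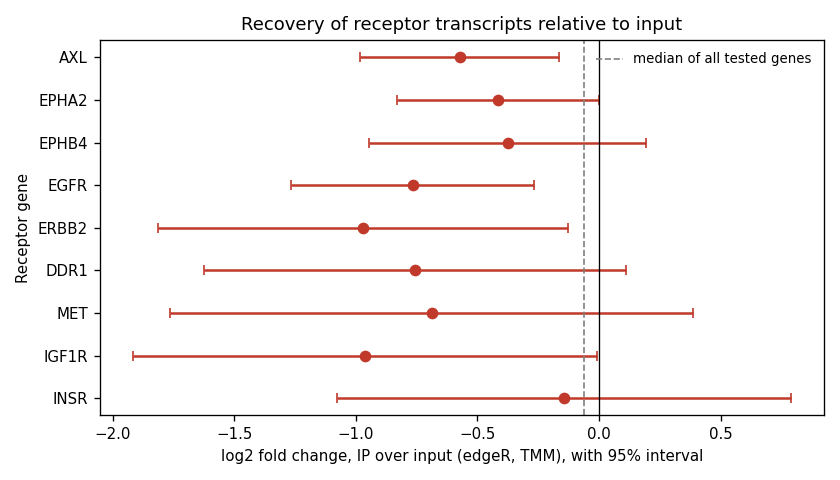
Log2 fold change of IP over input for each receptor gene (points, edgeR with TMM scaling) with 95% intervals (bars), the dashed line marking the median of all tested genes at -0.06. All 9 points lie below 0, from -0.97 for ERBB2 to -0.14 for INSR, and 4 intervals lie wholly below 0.

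The scaling of the libraries set the size of the receptors' change and the number called. No absolute scale ties IP to input, and a fold change here says how a transcript did against the other transcripts of its library. The receptors' median log2 fold change of -0.69 under TMM became -0.82 when upper quartiles were used, -0.94 on library totals and -2.27 on the totals recovered from the FPKM table. The median of all tested genes moved alongside, at -0.06, -0.19, -0.31 and -1.65. The receptors' median minus that of all tested genes was -0.63, -0.63, -0.63 and -0.62 under these 4 scalings. These fits share the same counts and genes, and a scaling moves all log2 fold changes by nearly the same amount. The near equality of the gap was therefore fixed in advance and is no sign of its stability. That gap was -0.65 with a replicate block, -0.64 in DESeq2, -0.38 without IP replicate 1, and between -0.68 and -0.63 without each of the other libraries in turn. It narrowed to -0.49 with a 50-count minimum and was 0.07 with no filter on low counts. Among 1115 genes with at least 50 counts in 2 libraries the receptors' median was -0.48, beside 0.00 for all of these genes. With the FPKM totals all 9 receptors were called lower, where 57.2% of all tested genes were. By limma, 9 were called lower on log2(FPKM + 1) and 8 on log2(FPKM + 0.1), where 69.5% and 50.8% of all tested genes were. Without a filter on low counts AXL, EGFR and EPHA2 were called lower, beside 0.892% of the 18276 genes then tested. The recovered FPKM totals exceed the counts in genes by different factors, since counts in genes made up 7.32% and 6.07% of them in IP, against 15.0% and 20.4% in input.

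**Figure D3:**
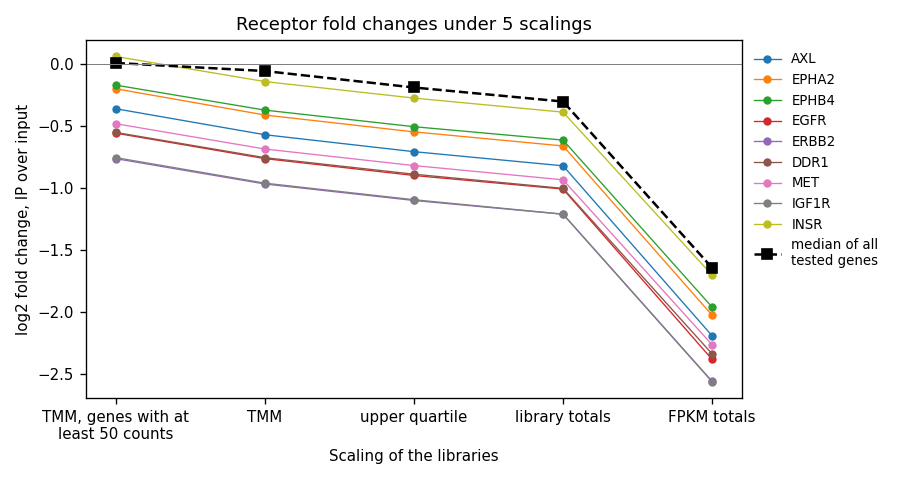
Log2 fold change of IP over input of each receptor gene (coloured lines) and the median of all tested genes (black squares) under 5 scalings, from TMM on genes with at least 50 counts in 2 libraries to the totals recovered from the FPKM table. Receptors and the median shift together, since a scaling moves all genes by nearly the same amount, and INSR crosses 0 at the left end.

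Levels of different receptors were compared per length, in the deposited FPKM values. The IP and input values of a gene are not directly comparable in FPKM. With the recovered FPKM totals the median log2 fold change of all tested genes was -1.65. AXL was at 24.9 and 17.9 FPKM in IP, against 80.0 and 118 FPKM in input. EPHA2 followed at 19.1 and 15.9 FPKM in IP, against 58.4 and 85.4 FPKM in input. EPHB4 formed the next step, at 3.28 and 3.1 FPKM in IP, against 9.59 and 15.4 FPKM in input. EGFR was near it at 2.64 and 1.6 FPKM in IP, against 9.23 and 13.5 FPKM in input. The other 5 receptors lay between 0.43 and 0.87 FPKM in IP and between 2.69 and 4.53 FPKM in input on average. Input replicate 2 was above input replicate 1 for every receptor in FPKM. Counts in genes made up 20.4% of the recovered total in input replicate 2 and 15.0% in input replicate 1. In input, the pairs AXL and EPHA2, EPHB4 and EGFR, ERBB2 and DDR1, DDR1 and MET, and IGF1R and INSR overlapped between libraries, so that neighbours within these pairs were not separated by more than the spread of the inputs. Within each input library, AXL was still above EPHA2, EPHB4 above EGFR and DDR1 above MET, while ERBB2 and DDR1, and IGF1R and INSR, changed places. EPHA2 and EPHB4, EGFR and ERBB2, and MET and IGF1R did not overlap. The 4 highest receptors kept their order in IP.

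**Figure D4:**
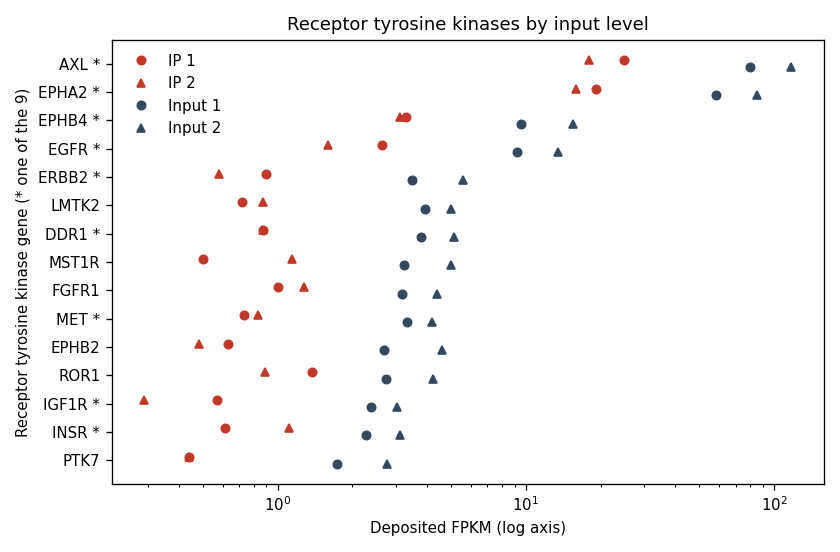
Deposited FPKM (log axis) of the 15 receptor tyrosine kinase genes with the highest mean input level, IP in red and input in dark blue, circles for replicate 1 and triangles for replicate 2, with an asterisk for each of the 9 receptors (small vertical offsets separate the groups). AXL and EPHA2 stand apart at the top in both kinds of library, and coinciding IP points of DDR1 and PTK7 cover each other.

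Among 58 receptor tyrosine kinases in all, 41 were listed, and the 9 receptors held 79.8% of the 430 IP counts of these genes and 81.1% of their 7071 input counts. The top 5 by input FPKM were all among the 9. Of the 49 others, 32 were listed and 7 were tested, with 0 called in either direction and a median log2 fold change of -0.76. FGFR1, a fibroblast growth factor receptor, had 13 and 11 IP counts, against 116 and 192 input counts (log2 fold change -0.18 ± 0.30, edgeR adjusted p = 0.863). EPHB2, another ephrin receptor, had 6 and 3 IP counts, against 71 and 147 input counts (-1.09 ± 0.44, adjusted p = 0.183). ERBB3, the usual partner of ERBB2, had 0 and 0 IP counts, against 4 and 5 input counts, and was too sparse to test.

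The receptors differ in gene length, which sets how much intron an unspliced transcript holds. EGFR, INSR, MET and IGF1R span over 100 kb (126 to 316 kb), and their log2 fold changes ran from -0.96 to -0.14. The 5 shorter genes, DDR1, EPHB4, EPHA2, ERBB2 and AXL (19.2 to 42.5 kb), ran from -0.97 to -0.38. These ranges overlap, so the receptors showed no division by span at this depth. The length by which the authors divided, as implied by counts and FPKM, ran from 4141 bases for EPHA2 to 13959 for IGF1R, and the span was 2.1 to 22.6 times this length.

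Ligands, transducers, restraining genes and sorting genes of the receptors were taken as 4 lists. Of 25 ligand genes, 20 were listed and 6 tested, with 0 called and a median log2 fold change of 0.11. COL4A2, a chain of basement membrane collagen, had 40 and 20 IP counts, against 304 and 494 input counts (-0.24 ± 0.22, edgeR adjusted p = 0.648). Of 36 signal transducers, 19 were tested, 1 was higher (2.70% of all tested genes were) and 0 were lower, and the median was -0.02. The one was MAP2K2, the kinase MEK2 that activates ERK, with 40 and 16 IP counts, against 119 and 220 input counts. MAP2K2 was at 789 ± 130 normalised CPM in IP and 434 ± 21.0 in input (SD, n = 2 each) and rose by 0.90 ± 0.22 on the log2 scale (adjusted p = 0.0146). In edgeR it also passed with upper quartile scaling (adjusted p = 0.0491), a replicate block (0.0476) and the 50-count minimum (1.11 on the log2 scale, 0.00113). It did not pass with library totals (0.133), with DESeq2 (0.189) or with no filter on low counts (0.43, 0.772). MAP2K2 was at 0.46 without IP replicate 1, 0.92 without IP replicate 2, 0.90 without input replicate 1 and 0.98 without input replicate 2. With the FPKM totals it was at -0.73, where the median of all tested genes was -1.65. AKT1, a kinase downstream of PI3K, was at 0.37 ± 0.31 (adjusted p = 0.614).

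Of 27 genes that restrain receptor signalling, 15 were tested, 2 were lower (1.36% of all tested genes were) and 0 were higher. The median was -0.18. PTPRF, a receptor-type tyrosine phosphatase, had 40 and 20 IP counts, against 434 and 822 input counts, or 881 and 871 normalised CPM in IP, against 1527 and 1676 in input. At -0.87 ± 0.22 on the log2 scale it was called lower (edgeR adjusted p = 0.0175). PTPRF also passed in edgeR with library totals (adjusted p = 0.00699), upper quartile scaling (0.00851) and no filter on low counts (6.90e-07). It did not pass with a replicate block (adjusted p = 0.0782), with DESeq2 (0.148) or among genes with at least 50 counts in 2 libraries (0.0586). Its log2 fold change ran from -1.10 to -0.76 without 1 library in turn. DUSP4, a phosphatase of MAP kinases, had 6 and 11 IP counts, against 171 and 302 input counts, and fell by 1.29 ± 0.34 (adjusted p = 0.0199). Its IP libraries were far apart, at 132 and 479 normalised CPM, against 602 and 616 in input. DUSP4 was at -0.56 on the log2 scale without IP replicate 1, -2.30 without IP replicate 2, -1.21 without input replicate 1 and -1.18 without input replicate 2. With all libraries it passed in edgeR with library totals (adjusted p = 0.0116), upper quartile scaling (0.0198) and no filter on low counts (9.06e-05). It also passed with a replicate block (0.0300) and the 50-count minimum (0.0425), but not with DESeq2 (0.605). Of 22 genes of receptor uptake and sorting, 13 were tested and 0 were called, with a median of -0.25, and the 2 with most counts, DNM2, a dynamin, and HGS, which sorts ubiquitinated receptors, were at -0.17 ± 0.28 (adjusted p = 0.854) and 0.55 ± 0.27 (0.322). Over these 4 lists of partners and the other receptors, 3 genes were called of 60 tested (5.0%), a share near the 4.06% of all tested genes.

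The transcripts whose pattern over the 4 libraries was most like that of AXL, by distance of centred log2 CPM among 1647 tested genes with at least 100 summed counts, were FLNA, STIM1 and PLXNA1. FLNA, an actin cross-linker, lay at a distance of 0.028, with 179 and 84 IP counts, against 1576 and 2764 input counts. STIM1, a calcium sensor of the endoplasmic reticulum, and PLXNA1, a semaphorin receptor, lay at 0.084 each. PLXNA1 had 97 and 48 IP counts, but STIM1 had only 8 and 4. With so few IP counts, the place of STIM1 is uncertain.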

How the data were processed

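The authors deposited read counts per gene, not normalized, and FPKM values of the same genes, which are counts per gene length and library total. Per the submitters' processing notes, HISAT2, HOMER and hg38 were used, in roles not stated there. How reads were counted (tool, strand, multi-mapping) and which total underlies the FPKM is not stated in these sources. The total was recovered from the ratio of counts to FPKM over 113 genes and from RefSeq lengths of 32 small RNA genes. Overlapping genes can share reads in ways the tables do not show.

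IP and input were compared with edgeR 4.0.16 in R 4.3.3 (quasi-likelihood test, TMM, the default filter on low counts, a group term, all 4 libraries, Benjamini-Hochberg at 0.05 over 3668 genes). The SE is the absolute log2 fold change over the root of F, and 95% intervals from its t quantile. The fit pools spread across genes. Replicates differed beyond counting noise (chi-square per degree of freedom 3.54 for IP and 1.59 for input), so each library counted as 1 replicate. Alternatives were other scalings and filters, DESeq2 1.42.0, limma 3.58.1 on log2(FPKM + 1) and log2(FPKM + 0.1), a replicate block and leaving out each library. Scripts were tested on simulated data. An exact permutation test of 2 against 2 libraries cannot go below 0.333 and was not used. Count intervals and limits at 0 counts hold counting error alone.

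The receptor genes and gene lists were chosen with earlier results of these data known. Named genes were the 9 receptors, SF3B6, the 2 genes with most counts and up to 6 called genes of each list, and the 3 genes nearest to AXL in pattern. SLC12A9, EGFR-AS1 and MIEN1 were named for their overlap with a receptor gene, and ERBB3 after its values were seen. The luminal markers were named in full. No sequence is shown, since counts per gene point to no site within a transcript.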

Additional observations from a re-analysis of the deposited data

How the results depend on the processing

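Calls over all tested genes moved with the scaling and the libraries. Against 149 genes with TMM (99 higher and 50 lower in IP), 146 were called with library totals (56 and 90), 136 with upper quartile scaling (67 and 69), 2115 with the FPKM totals (17 and 2098), 213 with no filter (50 and 163), 105 with a minimum of 50 counts in 2 libraries (80 and 25), 90 with a replicate block (68 and 22) and 39 with DESeq2 (37 and 2). Without 1 library in turn there were 31 to 164, with 26 to 94 higher and 5 to 70 lower, of other numbers of tested genes. Receptors called were 0 with TMM, where 1.36% of tested genes were called lower. They were 2 with library totals (2.45% called lower) and 2 with upper quartile scaling (1.88%). With the FPKM totals they were 9 (57.2%), and with no filter they were 3 (AXL, EGFR and EPHA2, beside 0.892%). No receptor was called with the block, with DESeq2 or with the 50-count minimum. On log2(FPKM + 1) limma called 9 and on log2(FPKM + 0.1) 8, where 69.5% and 50.8% of all tested genes were called lower. The receptors' median, -0.69, became -0.94 with library totals, -0.82 with upper quartile scaling, -2.27 with the FPKM totals, -1.16 with no filter (median of all genes -1.23) and -0.48 with the 50-count minimum, and ran from -0.79 to -0.60 without 1 library. Without IP replicate 1 the median of all tested genes was -0.34 and the gap to it -0.38, beside -0.63 with all libraries. Their IP share was 0.582 times the input share, 0.220 with the FPKM totals, 0.645 without the small RNA and mitochondrial genes, and 0.563 to 0.603 without 1 library. AXL held 46.4% of the receptors' summed input FPKM and 41.9% of their CPM. INSR turned to 0.057 with the 50-count minimum and 0.33 without IP replicate 1. MAP2K2 turned to -0.73 with the FPKM totals, -0.69 on log2(FPKM + 1) and -0.75 on log2(FPKM + 0.1). The FPKM totals pulled down the bulk of tested genes as well. Their median fell from -0.06 under TMM to -1.65, and MAP2K2 stayed above it in both fits. The 50-count minimum raised the receptors' median along with INSR, from -0.69 to -0.48. Beyond these shared moves, the cause of the shifts of INSR and MAP2K2 was not tested. MET was not tested without either input library, since it failed the filter there. Same-numbered IP and input libraries did not deviate together (r = 0.00 across 3668 genes). Counting noise could hide a shared deviation, since the tested genes had a median of 8 pooled IP counts. Whether same-numbered libraries are paired by design was not settled by this value. No library had molecular identifiers, and IP counts of 7 to 11 for MET, IGF1R, ERBB2, DDR1 and INSR limit what can be said of them.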
